A study of Mus musculus with 2 samples.

Results

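This account covers beta-defensins and other antimicrobial proteins in primary mouse keratinocytes: Defb1, Defb3, Defb4, Defb6 and Defb14 among the beta-defensins, with Camp, Lcn2, Ltf, Saa3 and Pglyrp1. They were named by gene symbol, and every probe set whose only platform symbol is on that list was taken, which gave 10 probe sets for 9 of the 10 genes, out of 45101 probe sets and 18193 genes in all. Defb14 was not analysed here. Each probe set combines several short probes for a transcript into 1 signal. The series holds 2 Affymetrix arrays, each hybridised with RNA of a keratinocyte culture from the skin of newborn C57BL/6 mice, grown on collagen in CnT07 medium and used as a primary culture. The control culture came from mice titled MED1flox/flox and described in their source as wild-type, the former being the name of mice whose Med1 gene is flanked by Cre recombination sites. No Cre is named for the control. The other culture came from K5Cre+;MED1flox/flox mice (MED1epi-/-), in which Cre recombinase under the keratin 5 promoter is meant to remove Med1 in keratinocytes. MED1 is a subunit of Mediator, which couples transcription factors to RNA polymerase II. The comparison asked how expression in keratinocytes of the null mice differed from that in control keratinocytes. The number of mice behind a culture is not given in the sources used here.

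Each group has a single array, so neither a test nor a spread between cultures was available, and precision is limited by that number. Probe sets of the same gene gave the available measure of spread, a pooled SD of 0.31 on the log2 scale, or 1.24-fold, over 4916 genes. Signals are MAS5 values on a linear scale. Low values are noisy, so every signal under 67.7, the median over both arrays, was set to this floor for the log2 ratios. A gene that stayed under it on each array is called not measured. Med1 itself read 462.7 for control and 1038.7 for the other array, and all 7 of its probe sets were higher there. The deleted part is not stated in the labels, and a probe set outside it checks nothing, so the second array is named null-labelled here, after its label. Xist read 5461.1 and 55.7 and the Y-linked Eif2s3y 4.2 and 2163.6, so sex-linked transcripts differed along with genotype. With 1 array each, a difference of sex and one of genotype cannot be told apart in the results. Keratinocyte markers were high on both arrays, with Krt5 at 26821.4 and 32219.6 and Krt14 at 32904.7 and 36849.0, although Krt1 and Krt15 were below the floor on both.

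Antimicrobial peptides and proteins form a chemical barrier on the skin. Beta-defensins are small cationic peptides held together by disulfide bonds that damage microbial membranes and attract immune cells, and keratinocytes make some of them constantly and others after injury, microbial products or cytokines such as interleukin-1, interleukin-17 and interleukin-22. Camp encodes the cathelicidin precursor, which proteases cut into the active peptide. Lcn2 (lipocalin 2) binds bacterial iron carriers and Ltf (lactoferrin) binds iron itself, Saa3 is an acute phase serum amyloid A protein, and Pglyrp1 recognises bacterial peptidoglycan. Camp, Ltf and Pglyrp1 are also known as products of neutrophil granules.

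The promoters below are shown because they set the genes that differed between the arrays beside a close relative that did not reach the floor. The promoter table of RefSeq (GRCm38.p6) held 7 of the 10 genes, without Defb1, Defb4 and Defb14. The 250 bases before the start site are printed for Defb3 (chr8:19293111-19293360, plus strand), Defb6 (chr8:19225228-19225477, plus strand), Defb8, a neighbour of Defb3 outside the list (chr8:19447607-19447856, minus strand), Lcn2 (chr2:32387740-32387989, minus strand) and Saa3 (chr7:46715677-46715926, minus strand). Capitals mark matches, on either strand, to 6 patterns that were searched. The pattern for NF-kB, a factor activated by inflammatory signals, was GGNNTTNCC. That for C/EBP factors, which act on acute phase genes, was TTGCNNAA. STAT factors, which cytokine receptors activate, were given TTCNNNGAA. AP-1, made of Fos and Jun proteins, was given TGANTCA. The half-site of nuclear receptors, the class of factors MED1 was first known to bind, was AGGTCA. The TATA box was given TATAAA. Overlapping matches run together.
Defb3: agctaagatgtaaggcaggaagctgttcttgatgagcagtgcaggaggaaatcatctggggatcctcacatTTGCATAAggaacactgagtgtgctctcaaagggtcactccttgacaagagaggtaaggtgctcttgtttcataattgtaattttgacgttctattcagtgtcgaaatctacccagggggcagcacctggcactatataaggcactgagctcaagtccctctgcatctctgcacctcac
Defb6: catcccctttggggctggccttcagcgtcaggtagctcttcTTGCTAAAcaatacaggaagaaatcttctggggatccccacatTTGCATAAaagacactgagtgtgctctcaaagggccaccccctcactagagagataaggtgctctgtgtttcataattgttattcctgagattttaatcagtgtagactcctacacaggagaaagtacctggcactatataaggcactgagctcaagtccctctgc
Defb8: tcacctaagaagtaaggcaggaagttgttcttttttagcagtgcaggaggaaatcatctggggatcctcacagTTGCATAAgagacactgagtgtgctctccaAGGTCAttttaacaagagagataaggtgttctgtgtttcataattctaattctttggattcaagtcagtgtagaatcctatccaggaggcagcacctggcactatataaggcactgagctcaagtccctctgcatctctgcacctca
Lcn2: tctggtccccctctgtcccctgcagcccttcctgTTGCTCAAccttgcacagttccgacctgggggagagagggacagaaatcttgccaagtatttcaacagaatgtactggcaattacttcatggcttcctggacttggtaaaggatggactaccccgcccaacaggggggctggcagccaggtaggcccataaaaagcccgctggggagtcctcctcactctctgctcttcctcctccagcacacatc
Saa3: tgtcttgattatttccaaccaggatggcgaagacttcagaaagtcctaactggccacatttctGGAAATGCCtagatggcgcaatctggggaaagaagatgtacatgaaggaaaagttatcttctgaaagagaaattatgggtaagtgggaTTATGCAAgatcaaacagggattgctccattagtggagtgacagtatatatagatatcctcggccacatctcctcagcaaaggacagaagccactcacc

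The Defb3 and Defb6 promoters aligned over 222 positions with 83.8% identical bases, from base -235 to -16 of Defb3 and -222 to -1 of Defb6, counted from the start site. The other 20 pairs of promoters of the listed genes aligned over 8 to 34 positions only. Defb3 was also close to other neighbours. Its promoter aligned with that of Defb8 over 251 positions at 88.0% identity and with that of Defb46 over 241 at 85.1%. With Defb5 it aligned over 241 positions at 83.8% and with Defb7 over 173 at 86.1%. Of the 7 promoters, 5 held the C/EBP pattern, which 9.56% of the 32851 promoters in the table hold: Defb3, Defb6, Lcn2, Ltf and Saa3. The NF-kB pattern was in 2, Saa3 and Pglyrp1, and in 13.5% of the table. The nuclear receptor half-site was in the Ltf promoter alone among the 7 and in 14% of the table. The STAT (7.02% of the table), AP-1 (6.75%) and TATA (12.4%) patterns were in none. For the TATA box only the exact letters TATAAA were searched. Close spellings such as TATATAAG, present in Defb3, Defb6 and Defb8, were not counted, so this does not show that a TATA box is missing. Defb3 and Defb8 share the 8 letters TTGCATAA, at bases -179 to -172 and -177 to -170, and Defb6 has them at -166 to -159. A match describes letters in these windows, and nothing about binding was measured.

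Beta-defensins differed from each other in direction. Defb1 was 4.17-fold higher on the null-labelled array, Defb3 was 2.42-fold lower, Defb6 lay lower within 2-fold and Defb4 was nearly level. Of the 9 genes, 6 reached the floor on at least 1 array. Among these, Defb1 and Saa3 were at least 2-fold higher, where 1.63% of the 11621 measured genes were, and Defb3 and Lcn2 were at least 2-fold lower, where 2.23% were. The genes were put together with results of these data known, so these counts describe the list and support nothing beyond it.

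**Figure D1:**
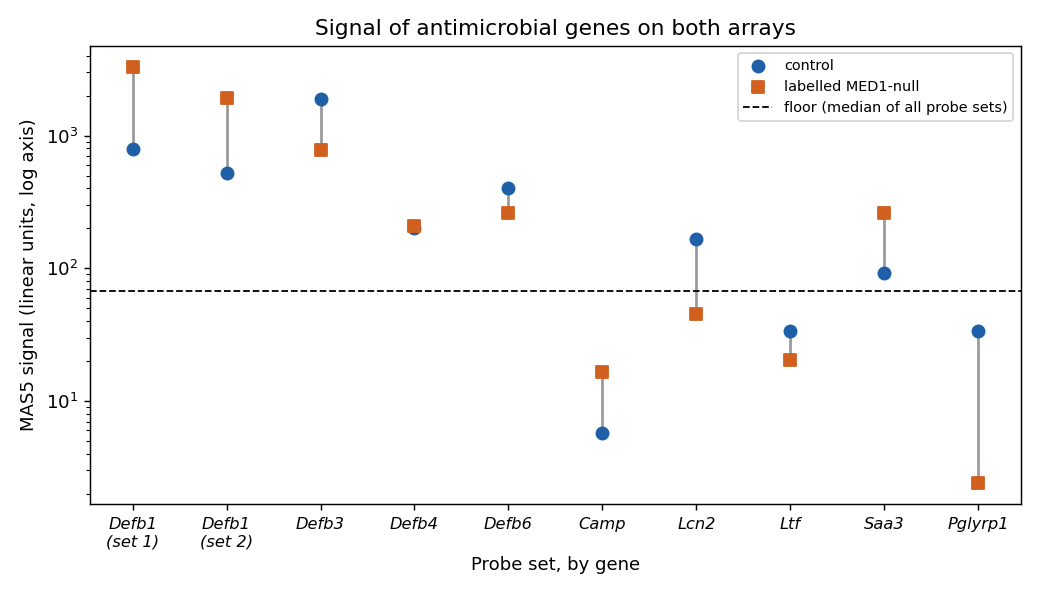
MAS5 signal (linear units on a log axis) of the 10 probe sets on the control array (blue circles) and the null-labelled array (orange squares), 1 array each, with the floor of 67.7 dashed. Both Defb1 probe sets and Saa3 sit higher on the null-labelled array, Defb3, Defb6 and Lcn2 sit lower, Defb4 overlaps, and Camp, Ltf and Pglyrp1 lie under the floor on both.

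Defb1 encodes a beta-defensin that epithelia are known to make without an inducing stimulus. Its brighter probe set read 790.7 in control keratinocytes and 3299.7 on the null-labelled array. A second probe set, whose suffix marks probes that may match more than one transcript, read 524.0 and 1918.1. Both were clearly above the floor on both arrays and differed the same way, with log2 ratios of 2.06 and 1.87 (4.17-fold and 3.66-fold). The gap between these probe sets is smaller than the pooled SD between probe sets. Defb1 ranked 6th from the highest ratio among the 11621 measured genes. Among the 4235 genes that read over 16 floors on their higher array, as Defb1 and Defb3 did, 0.968% were higher and 2.36% lower by 2-fold or more.

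Defb3 encodes an inducible beta-defensin of epithelia. It read 1898.2 in control keratinocytes and 783.5 on the null-labelled array, a log2 ratio of -1.28 from its only probe set, and ranked 140th from the lowest. Defb6, a relative whose promoter is printed above, read 400.8 and 259.5, which is 1.54-fold lower (log2 ratio -0.63) and does not reach 2-fold. Defb4, an inducible defensin likewise, read 201.2 and 207.7, a log2 ratio of 0.05, and this small value turned below 0 under each rescaling of the arrays. The pooled SD between probe sets holds no spread between cultures, so with 1 culture each these values cannot show that Defb3 or Defb6 differed more than Defb4.

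A factor applied to a whole array cancels in the difference between the ratios of a pair of genes read above the floor on both arrays, whereas quantile and lowess rescaling, which act by signal, do not. With the values as reported, the log2 ratio of Defb1 exceeded that of Defb3 by 3.34, or 10.1-fold, that of Defb6 by 2.69 and that of Defb4 by 2.02. Defb4 exceeded Defb3 by 1.32, and Defb6 exceeded Defb3 by 0.65. The gap between Defb4 (log2 ratio 0.05) and Defb6 (-0.63) was not computed but is of similar size. The pair of Defb3 and Defb6 therefore does not stand out. Probe sequences were not used here, so cross-hybridisation between related defensins was not tested.

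In the RefSeq gene order of mouse chromosome 8, Defb14, Defb4, Defb6, Defb46, Defb5, Defb3, Defb8 and Defb7 follow each other, and Defb1 lies in another stretch beside Defb50, Defb2 and Defb10. Signal above the floor was found for Defb4, Defb6 and Defb3 only among those of the first stretch with a probe set. Defb5, between Defb6 and Defb3, read 13.8 and 2.1, Defb8 read 17.0 and 32.4, and Defb7 read 0.5 and 38.2. Next to Defb1, Defb2 read 4.8 and 8.6 and Defb10 read 48.5 and 13.9. The platform named 16 beta-defensin genes besides those listed, and 0 of them reached the floor on either array, with signals from 0.5 to 48.5 on the control array and from 1.3 to 49.2 on the other. Defb8, with a promoter so like that of Defb3, was thus below the floor where Defb3 read far above it on both arrays. So were Defb5 and Defb7, whose promoters also resembled that of Defb3.

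**Figure D2:**
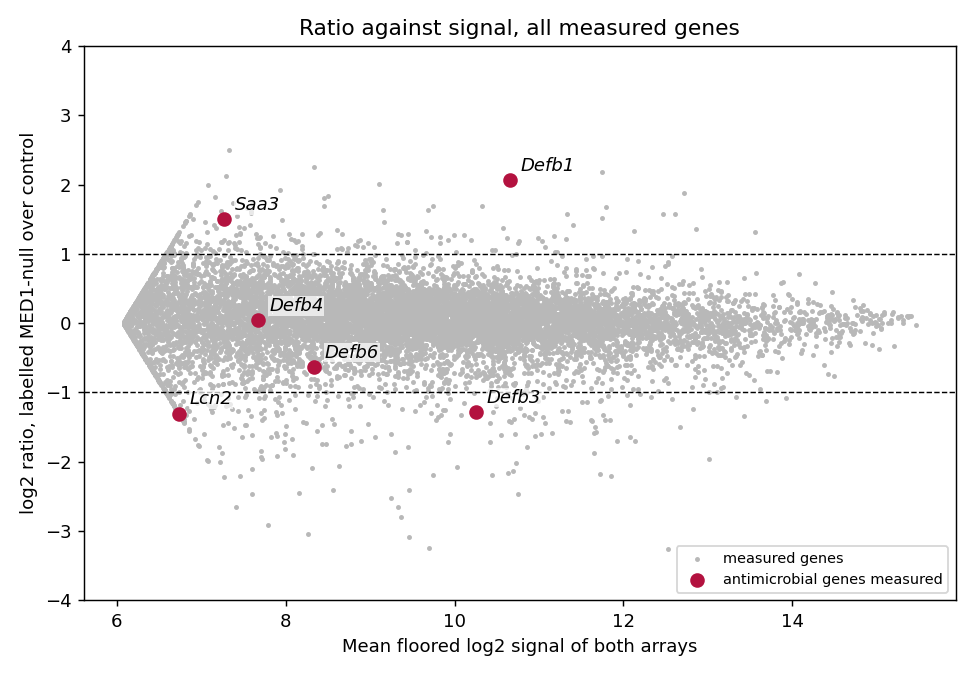
The log2 ratio of the null-labelled array over control (vertical axis) against the mean floored log2 signal of both arrays (horizontal axis) for measured genes (grey), with the 6 measured antimicrobial genes in red and 2-fold marked by dashed lines. Defb1 at 2.06 and Defb3 at -1.28 lie at high signal, Saa3 and Lcn2 near the floor, and 2 genes lie outside the axis. Between 1 and 4 floors, 2.42% of genes were at least 2-fold higher and 2.19% lower, against 0.968% and 2.36% over 16 floors.

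Saa3 and Lcn2, both known as inflammation-responsive secreted proteins, went opposite ways at low signal. Saa3 read 91.4 in control keratinocytes and 259.0 on the null-labelled array, 2.83-fold higher, and ranked 37th from the highest. Lcn2 read 167.3 on the control array and 45.4, under the floor, on the other, and was at least 2.47-fold lower, with a rank of 130th from the lowest at its bound. Each has a single probe set, and each lies between 1 and 4 floors on its higher array, a range where 2.42% of 3428 genes were higher and 2.19% lower by 2-fold or more. With the arrays scaled as deposited, the gap between their log2 ratios was at least 2.81.

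The genes nearest to both on their chromosomes were read as well. Of the 6 genes nearest Lcn2, 6 lay within 2-fold, among them Ptges2 at 348.1 and 404.0. Beside Saa3 lie its family members Saa4, Saa1 and Saa2, of which Saa1 and Saa2 encode acute phase proteins of the liver. These were under the floor on both arrays, at 3.6 and 10.7, 7.0 and 20.7, and 4.5 and 51.5. Saal1, on the other side, read 629.6 and 712.5.

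The cathelicidin gene Camp and the genes Ltf and Pglyrp1 were not measured at this floor. Camp read 5.7 (control) and 16.5 (null-labelled), Ltf 33.8 and 20.3, and Pglyrp1 33.5 and 2.4. These values do not show that the transcripts were absent, and no fold is given for them at this floor. Of the neutrophil markers 4 of 12 reached the floor on either array, none was 2-fold apart, and the summed signal was 750.2 and 953.5. That sum includes Mmp9 (288.5 and 536.9, with a second probe set at a log2 ratio of 1.02), which keratinocytes can also make. Mpo read 9.5 and 73.6, while Fcnb (128.9 and 72.1) and Itgb2l (83.1 and 37.9) were lower on the null-labelled array. The measured markers thus had 2 ratios above 0 and 2 below, with a median log2 ratio of -0.09. Elane (14.4 and 36.8), Ngp (18.5 and 53.7), Csf3r (53.7 and 3.8) and Ctsg (38.7 and 3.9) lay under the floor.

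Markers of other cells were read beside these results. Macrophage and monocyte markers summed to 3075.1 and 3691.0, mostly Cd68, with 7 of 12 measured and none 2-fold apart. C1qa, Cd163 and Aif1 were under the floor on both arrays. All 7 measured had a ratio above 0, with a median log2 ratio of 0.28, against 0.06 over all measured genes. The 3 probe sets of Csf1r went both ways, from -0.68 to 0.48. Of the Langerhans and dendritic cell markers 2 of 9 were measured, with Cd207 and H2-Aa under the floor, and the sum of 8576.3 and 11325.6 was nearly all Epcam, which epithelial cells share. Of lymphocyte markers 1 of 9 was measured (summed signal 189.8 and 88.5), and Ptprc, made by all leukocytes, was under the floor at 27.7 and 7.8. Of 8 fibroblast markers measured, 7 were lower on the null-labelled array. Vim, Sparc and Fn1, 3 of the 8, were at least 2-fold lower, where 2.23% of all measured genes were. These 3 made up most of the summed signal of 7121.2 and 2906.3, and which cells in the cultures made them was not tested. Dcn (118.1 and 35.2) and Col3a1 (120.8 and 35.5) read close to the floor on the control array and under it on the other. Col1a2 was higher (80.3 and 115.3), and Col1a1 (42.3 and 14.1) and Lum (29.8 and 53.0) were under the floor on both arrays. The second Fn1 probe set had a log2 ratio of -0.35, against -1.27 for the one used. Melanocyte markers summed to 25056.2 and 19506.6, with Kit 2.99-fold lower among 8 measured, although its second probe set had a log2 ratio of -0.88. The 3 probe sets of Tyr went both ways, from -1.26 to 0.25. Fewer cells of a type and less RNA per cell cannot be told apart in these cultures. The part that the differences in fibroblast and melanocyte markers had in the results above was not tested. Keratinocyte markers, 9 of 11 measured, were within 2-fold by the brightest probe set (Trp63 probe sets had log2 ratios between 0.59 and 1.11), and 8 of the 9 had a ratio above 0.

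Other antimicrobial proteins were then read from a wider list. Of 25 with a probe set 13 were measured, 3 were at least 2-fold lower, 1 was at least 2-fold higher, and the median log2 ratio was 0.05, against 0.06 over all measured genes. Among all measured genes 2.23% were at least 2-fold lower and 1.63% higher. This list and those below were also chosen with earlier results of these data known, so their counts only describe them. Slpi, a protease inhibitor that is itself antimicrobial, read 18294.1 and 1902.7 (9.61-fold lower). The calprotectin subunits S100a8 (16312.9 and 4185.3, 3.90-fold lower) and S100a9 (3.14-fold lower) were lower like Defb3 and Lcn2. Adm, whose peptide adrenomedullin has antimicrobial activity, read 3530.4 and 12983.8 and was higher like Defb1 and Saa3. Antimicrobial genes well above the floor thus lay on both sides, and 9 of the 13 lay within 2-fold, for instance the ribonuclease Rnase4 at 1986.8 and 2018.9 and Cxcl14 at 1677.8 and 1654.1.

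Cytokines known to induce these genes, listed with the interleukin-1 receptor antagonist Il1rn (625.8 and 554.3), also went both ways. Of 14 measured, Il33 (3.20-fold) and Il24 (4667.5 and 11913.2, 2.55-fold) were higher, and Csf3 (3.14-fold), Il1a (2.27-fold) and Csf2 (at least 2.10-fold, named after its value was seen) were lower, with a median log2 ratio of 0.20. Among all measured genes 1.63% were at least 2-fold higher and 2.23% lower. Il17a, a T cell cytokine that induces beta-defensins, was under the floor at 28.8 and 15.1, as was Il6. The interleukin-1 beta gene Il1b read 72.2 and 107.4, close to the floor.

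None of the 21 measured receptors and sensors was 2-fold apart, with a median log2 ratio of -0.04 or 0.02 when the floor was the 75th percentile or none was used. The interleukin-17 receptor subunits Il17ra (393.6 and 429.4) and Il17rc (1533.2 and 1369.8) were within 1.12-fold. The farthest from 0 were Il22ra1, a subunit of the interleukin-22 receptor (108.8 and 26.7, at least 1.61-fold lower), and Egfr (1.48-fold higher by its brightest probe set). The 6 probe sets of Egfr went both ways, from -0.70 to 0.56 in log2 ratio. The list of transcription factors that act on antimicrobial promoters had 22 measured genes, all within 2-fold by the brightest probe set. Their median was 0.07, and they include Nfkbia, which encodes an inhibitor of NF-kB. A second probe set of Nfkb2 had a log2 ratio of 1.21, against 0.06 for the one used. Cebpa was 1.97-fold higher (639.6 and 1257.3) and Nfkbiz, a co-factor of NF-kB needed for Lcn2 induction in many cells, 1.86-fold lower (10716.2 and 5750.7). The 3 probe sets of Nfkbiz ran from -0.90 to -0.03 in log2 ratio, so its difference is uncertain. Levels of a factor's transcript say nothing of its activity.

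**Figure D3:**
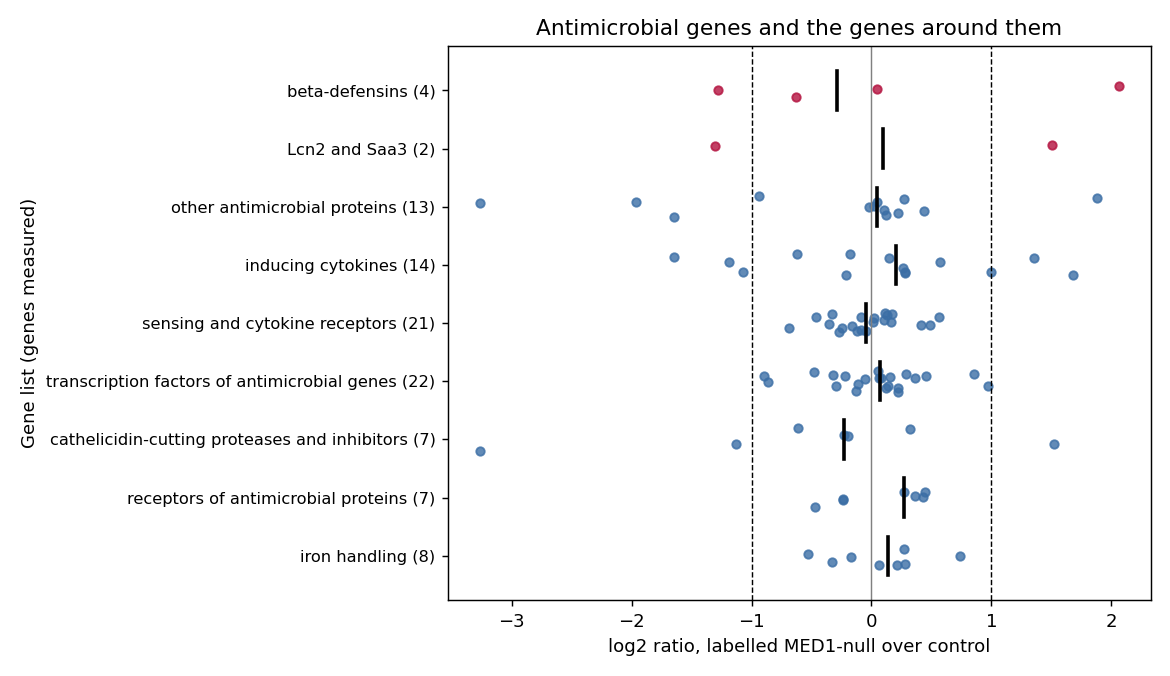
The log2 ratio of the null-labelled array over control (horizontal axis) for each measured gene of 9 lists (rows, number measured in brackets), with the listed antimicrobial genes in red, list medians as black bars and 2-fold dashed. Members of the antimicrobial and cytokine lists lie beyond 2-fold on both sides. The lists of receptors and of transcription factors stay within it by the brightest probe set, which is the one plotted.

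Proteases that cut cathelicidin and their inhibitors included 3 of 7 measured genes beyond 2-fold, where 1.63% of all measured genes were higher and 2.23% lower. Klk6 was 2.88-fold higher, while the inhibitors Slpi, counted above as well, and Serpina3n (163.5 and 74.7, 2.19-fold lower) were lower, and the median was -0.23. Klk5 and Klk7, which process cathelicidin in skin, were 1.25-fold higher (2105.2 and 2633.0) and 1.15-fold lower (25225.4 and 22025.1). Receptors of antimicrobial proteins had 7 of 11 measured and none beyond 2-fold, with a median of 0.27 that became -0.24 when the floor was the 75th percentile and -0.23 without a floor. The lipocalin 2 receptor Slc22a17 read 130.7 and 167.8. The 2 farthest from 0 were the endocytic receptor Lrp1 (1.39-fold lower) and Ccr6, a chemokine receptor that beta-defensins can engage (20.4 and 92.3, at least 1.36-fold higher). Of 8 iron-handling genes none was 2-fold apart, with Slc40a1, the iron exporter, 1.67-fold higher, the heme oxygenase Hmox1 1.44-fold lower and a median of 0.14, or -0.06 once the floor was at the 75th percentile. The list of iron genes is given because Lcn2 and Ltf act on iron.

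The ratios of the 6 measured antimicrobial genes were recomputed under 8 other settings. Defb1 ran from 1.97 to 2.06, Saa3 was lowest at 1.37, with a lowess curve, and Defb3 ran from -1.34 to -1.28 in log2 ratio. Defb6 ran from -0.73 to -0.63. Lcn2 ran from -1.88 to -1.31, because its low value on the null-labelled array is set by the floor. With the floor at the 75th percentile, 434.6, Defb1 and Defb3 alone were measured. At a threshold of 1.5-fold, Defb6 joined Defb3 and Lcn2 on the lower side, where 7.32% of measured genes lay, and Defb1 and Saa3 were still the higher ones, as were 7.8% of measured genes.

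**Figure D4:**
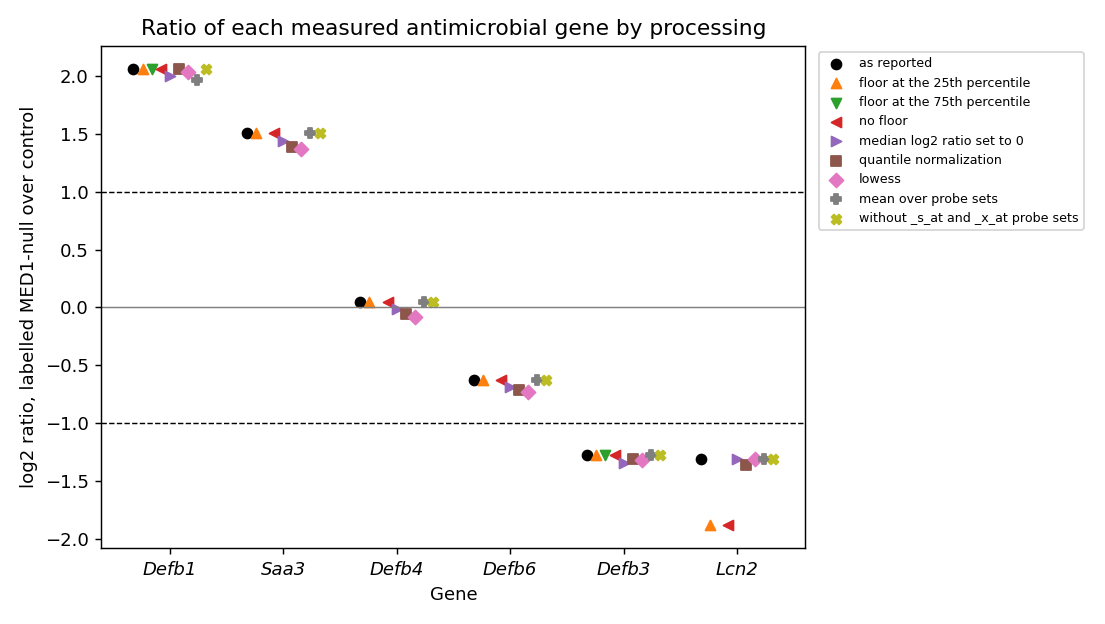
The log2 ratio of the null-labelled array over control (vertical axis) of each measured antimicrobial gene under the reported and 8 alternative settings (symbols), with 2-fold dashed. Defb1 and Saa3 stay above 1, Defb3 and Lcn2 below -1 and Defb6 between -1 and 0 wherever they were measured, while Defb4 lies on both sides of 0.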

How the data were processed

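Each sample is 1 Affymetrix Mouse Genome 430 2.0 array of keratinocyte RNA. The values the authors deposited are linear signal intensities, 1 for each probe set. The submitters' processing notes name MAS5, and the design text names Affymetrix's GeneChip Operating Software. Its version is not given in the sources used here. From the values, each array was scaled to a mean of 500.0 after trimming 2% at each end, and 64 of the probe sets are controls.

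GEO's annotation of the platform gave 1 symbol to 34945 probe sets, several to 932 and none to 9160. A gene was read from its brightest probe set over both arrays. Log2 ratios of floored signals were computed (Python 3.11.15, numpy 2.4.6, pandas 2.3.3), and genes at least 2-fold apart were counted. No test was made, as each group has 1 array. Counting was tested on simulated data, with changes larger than 2-fold put only into genes above 4 floors on both arrays. Their noise was set smaller than the spread between probe sets. The check therefore does not cover genes nearer the floor, such as Saa3 and Lcn2. Genes, lists and rules were chosen with earlier results of these data known, and the strata by signal, the promoters shown and the patterns searched after the values were seen. A looser NF-kB spelling was searched first and set aside. Named genes are every listed antimicrobial gene and, of each further list, up to 4 beyond 2-fold, or else the 2 farthest from 0. Further genes give context chosen after their values were seen. Likeness of pattern was not computed over 2 arrays. Alternatives were other floors, none, 3 rescalings, a mean over probe sets, probe sets without shared-sequence suffixes and a 1.5-fold threshold.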

Additional observations from a re-analysis of the deposited data

How the results depend on the processing

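The directions of Defb1, Saa3, Defb3, Defb6 and Lcn2 held under each alternative that measured them, while Defb4 turned to -0.02, -0.05 and -0.08 with the median ratio set to 0, quantile normalization and a lowess curve. The counts of listed antimicrobial genes, 2 higher and 2 lower, became 1 and 1 with the floor at the 75th percentile, which left Saa3 and Lcn2 unmeasured, 3 and 3 with no floor, and 2 and 3 at 1.5-fold. Without a floor, Camp had a log2 ratio of 1.53, Ltf -0.74 and Pglyrp1 -3.80, all from signals under the floor of 67.7 on both arrays. Over the 116 genes of the other lists with a probe set, measured or not, 4 were at least 2-fold higher and 7 lower. With the floor at the 25th percentile these were 9 and 11, with no floor 15 and 12, and with the floor at the 75th percentile 4 and 4. The counts over all measured genes moved too, as did the number measured. They were 190 higher and 259 lower of 11621 as reported, and 1120 and 934 of 16039 with the floor at the 25th percentile. With no floor they were 2232 and 1905 of 18193, and with the floor at the 75th percentile 49 and 106 of 6972. Rescaling gave 158 and 300 by the median, 153 and 304 by quantiles and 144 and 313 by lowess. No paired analysis was possible because each group has 1 array, and no replicate could be left out.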

Other observations

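Some antimicrobial and cytokine genes lay just outside the criteria, and are given as values chosen after they were seen. Wfdc12, a relative of Slpi with a whey acidic protein domain, read 67.4 on the control array, just under the floor of 67.7, and 6.1 on the null-labelled array. Tnf, a cytokine that induces several defensins, read 208.1 and 415.9, a log2 ratio of 0.999, just short of 2-fold. Lpo, which encodes lactoperoxidase, read 252.8 and 131.8 (1.92-fold lower). Ccl20, a chemokine with antimicrobial activity that shares the receptor Ccr6 with beta-defensins, read 30.8 and 91.9, and Ccr6 itself 20.4 and 92.3, both under the floor on the control array and just above it on the other. Ehf, an epithelial transcription factor, read 2089.3 and 1148.4, and its 3 probe sets had log2 ratios from -0.97 to -0.84. Relb, a subunit of NF-kB, read 219.0 and 396.0 (1.81-fold higher).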
